A study of Mus musculus with 24 samples.

Results

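Thyrotropin production in the mouse pituitary was followed through 5 genes of the thyrotropin axis: Tshb, Trhr, Dio2, Thra and Thrb. They were taken by symbol and Ensembl identifier from a table of RNA sequencing counts that holds 35191 genes, and each was measured in all 24 libraries. The libraries came from whole mouse pituitary and form 8 groups of 3, which combine both sexes with 4 genotypes. The Egr1cKO libraries are labelled FF (+), for floxed Egr1 with Cre, and the Egr1cKO control libraries FF (-), for floxed Egr1 without Cre. The Cre control libraries are labelled wt (+), for Cre without floxed Egr1, and the wild type libraries wt (-). Egr1 is an immediate early gene for a zinc-finger transcription factor, and the study asked how pituitary expression differs between the sexes in its conditional knockout and controls. The sources used here do not name the Cre driver, the age of the mice or the exon meant to be deleted.

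Thyrotropin is a heterodimer that the thyrotropes of the anterior pituitary secrete to drive the thyroid gland. Its beta subunit, encoded by Tshb, makes the hormone specific, while the alpha subunit, encoded by Cga, is shared with the gonadotropins. Hypothalamic thyrotropin-releasing hormone acts on thyrotropes and lactotropes through the Gq-coupled receptor that Trhr encodes. Thyroid hormone closes the loop: type 2 deiodinase, encoded by Dio2, turns the prohormone T4 into active T3 inside pituitary cells, and the nuclear receptors encoded by Thrb and Thra carry the T3 signal to target genes. Thrb is known as the receptor through which T3 represses Tshb in thyrotropes.

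Total counts ranged from 15486069 to 26255343 per library, and genes of the sex chromosomes fitted the labelled sex in 24 of 24 libraries. The labels do not say whether the 3 libraries of a group came from separate animals, and the spread behind each p-value is that between these samples, which may be technical. Egr1 ranged from 7.55 to 486 CPM (counts scaled to a fixed library total after TMM, edgeR's trimmed mean of M-values), and its mean was not lower in Egr1cKO than in Egr1cKO control in either sex. Counts per gene cannot show the loss of an exon. The titles number the libraries in one series for wild type and Cre control and another for both floxed groups, so floxed Egr1 and the number series cannot be told apart. The share of mitochondrial counts ran from 2.08 to 10.4%. One library stood apart within its group: female wild type replicate 1 had a mitochondrial share of 10.1%, against 2.14 and 2.695% in the other female wild type libraries, and results of the 5 genes whose call changes without it are given both ways.

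All coordinates of genes are from GENCODE M21 on GRCm38. Tshb (ENSMUSG00000027857) lies on chromosome 3 from 102775465 to 102782718 on the minus strand, within the span of Tspan2, a tetraspanin gene on the plus strand. The exons of the pair do not overlap, but the libraries were not stranded, and reads from unspliced Tspan2 RNA could fall on Tshb. Trhr (ENSMUSG00000038760) lies on chromosome 15 from 44196135 to 44235912. Dio2 (ENSMUSG00000007682) lies on chromosome 12 from 90724552 to 90738438 and shares 100 exonic bases, 1.72% of its exons, with the long noncoding RNA gene Gm26512 on the other strand. Thra (ENSMUSG00000058756) lies on chromosome 11 from 98740638 to 98769006, and 263 of its exonic bases, 5.70%, overlap the 3' end of Nr1d1, the circadian repressor REV-ERB alpha. Thrb (ENSMUSG00000021779) spans chromosome 14 from 17660261 to 18038090 and shares no exonic base with another gene.

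The promoters of Tshb and Dio2 are shown because these genes encode the hormone subunit and the enzyme that makes its feedback signal, and both were high in male libraries with Cre. Each runs 5' to 3' from 250 bases before to 50 bases after the RefSeq start site on GRCm38.p6, and both lie on the minus strand, Tshb at chr3:102782665-102782964 and Dio2 at chr12:90738989-90739288. The Dio2 window shares no base with the GENCODE span of Dio2 given above. It lies within the span of Gm26512, from 90738201 to 90869235. Capitals mark every match to 5 motifs that were searched on both strands: TATAAA (the TATA box), TGACGTCA (the cAMP response element), AGGTCA (the core of thyroid hormone receptor sites), GCGNGGGCG (the EGR site) and TATNCAT (the POU1F1 site).
Tshb: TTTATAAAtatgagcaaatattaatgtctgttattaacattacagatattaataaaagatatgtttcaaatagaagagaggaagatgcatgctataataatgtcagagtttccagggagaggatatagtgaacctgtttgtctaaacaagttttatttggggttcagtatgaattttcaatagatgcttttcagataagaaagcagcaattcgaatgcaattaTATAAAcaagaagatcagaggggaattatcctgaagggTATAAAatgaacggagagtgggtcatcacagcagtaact
Dio2: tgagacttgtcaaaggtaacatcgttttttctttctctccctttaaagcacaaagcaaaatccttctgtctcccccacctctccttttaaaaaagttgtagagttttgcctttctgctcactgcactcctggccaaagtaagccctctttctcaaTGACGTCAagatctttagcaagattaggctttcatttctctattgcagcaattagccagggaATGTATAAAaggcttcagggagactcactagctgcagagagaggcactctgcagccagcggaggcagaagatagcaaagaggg
In the Tshb window TATAAA began at -248, -27 and 12 relative to the start site, and a reverse-strand copy at -250 overlapped the first of these. In the Dio2 window TATAAA began at -30, TGACGTCA at -95, and a reverse-strand TATNCAT at -33 that overlapped the TATA box. Of 32851 mouse promoter windows of this length, 13.6% held TATAAA, 1.79% TGACGTCA, 16.3% AGGTCA, 5.55% GCGNGGGCG and 8.84% TATNCAT. Neither AGGTCA nor GCGNGGGCG was found in either of these windows, and neither TGACGTCA nor TATNCAT in the Tshb window. No such window was available for Trhr or Thra. Thrb windows were searched but are not shown, and AGGTCA was found at -184 in a Thrb window. These matches describe the letters only.

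Tshb was the most abundant of the 5 transcripts per length of exon, with a mean level of 97.8 CPM per kb over all libraries, rank 221 of 21885 genes. Thra followed at 20.5 CPM per kb, Dio2 at 10.3, Thrb at 9.01 and Trhr at 2.11 CPM per kb. In all 24 libraries the per-kb level of Tshb exceeded those of the other 4 genes, and that of Thra exceeded that of Thrb by a ratio of 1.33 to 5.50 with a median of 2.21 (levels per kb of all annotated exons, which do not separate isoforms). Dio2 and Thrb had no fixed order: Dio2 was the higher per kb in 13 libraries. Trhr was the lowest of the 5 in every library.

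**Figure D1:**
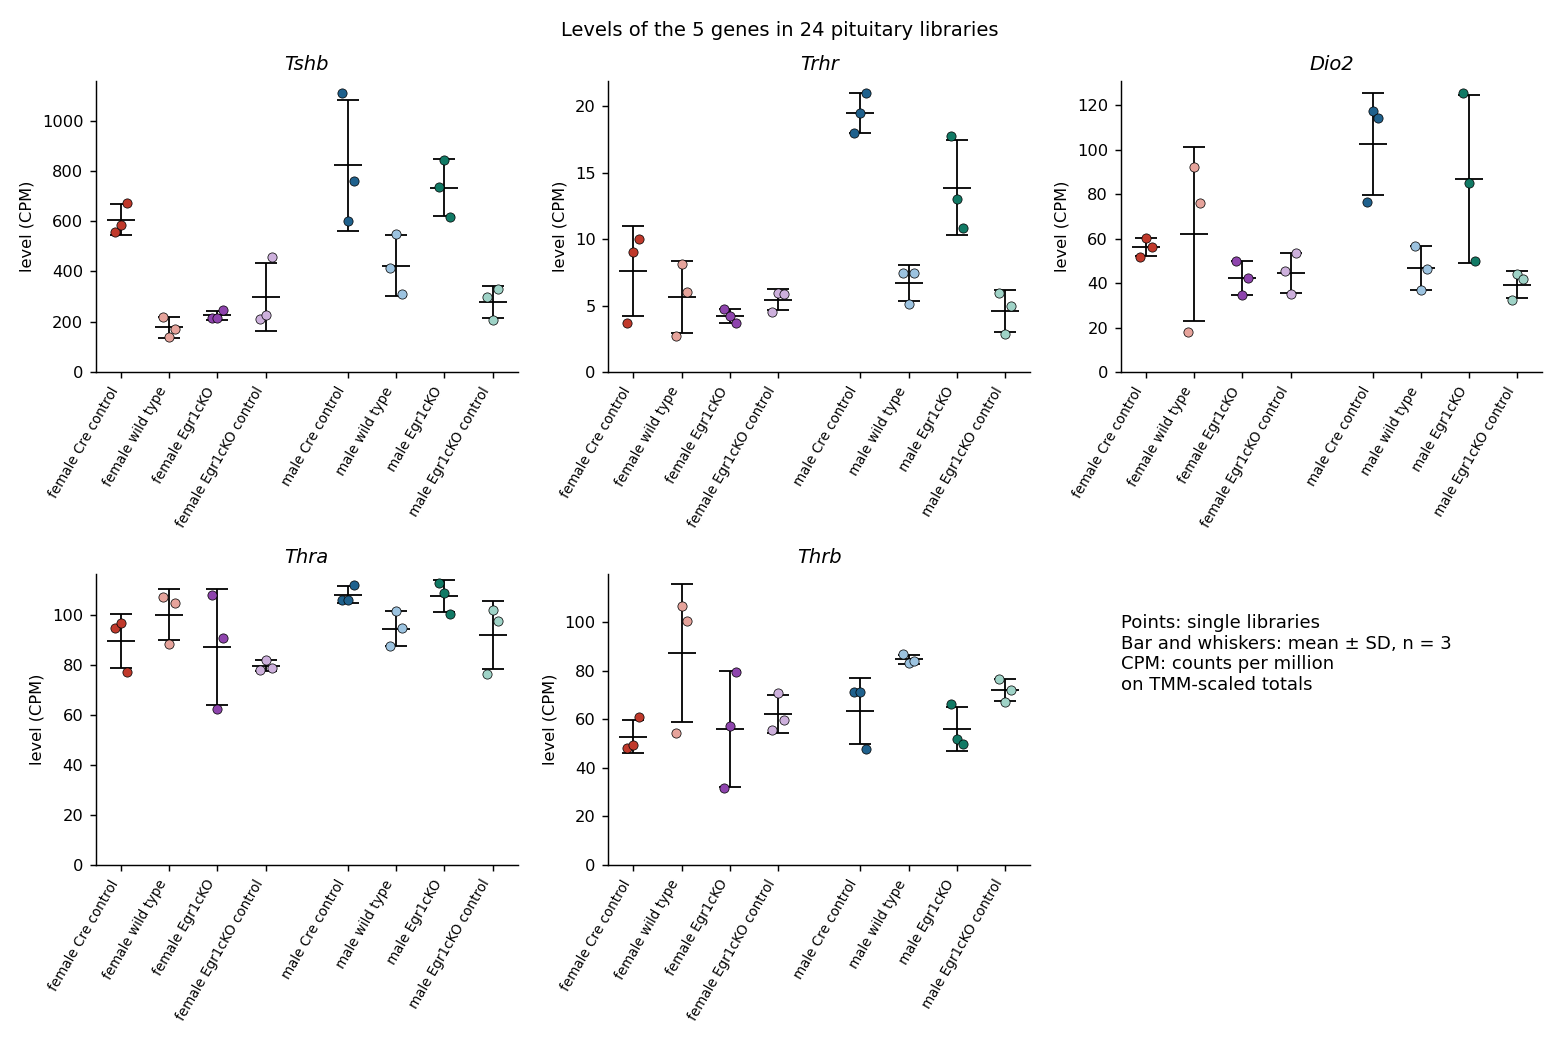
Levels of Tshb, Trhr, Dio2, Thra and Thrb in CPM (linear axis) in each library (points), with the mean and SD of each group of 3 (bars), by sex and genotype. Tshb, Trhr and Dio2 were highest in the male Cre control group, with Tshb at 823 ± 261 CPM, while Thra varied least, by 1.82 times between its lowest and highest library.

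Among females, the Cre control group held more Tshb mRNA than the wild type group. It measured 557, 585.5 and 674 CPM in female Cre control libraries, against 221, 140 and 172 CPM in female wild type libraries. All 3 Cre control libraries lay above every wild type library, a separation that 14.8% of the genes tested showed in this comparison. The fitted log2 fold change was 1.77 (SE 0.278, adjusted p by edgeR = 0.00188), which corresponds to 3.41-fold. Tshb was the one member called of 5 at an adjusted p under 0.05, where 1.21% of the 21927 genes tested were called, 0.369% as higher. The call held in each of 6 fits that left out 1 library of these groups, with log2 fold changes of 1.61 to 1.95, and without female wild type replicate 1 the value was 1.95 (edgeR adjusted p = 0.000249). It did not hold when only these 6 libraries were modelled (log2 fold change 1.76, edgeR adjusted p = 0.142), a fit in which 2 genes were called in all. Tspan2 moved the other way: it fell by 1.01 on the log2 scale (SE 0.253, adjusted p by edgeR = 0.0451), at 37.5 ± 5.16 CPM in female Cre control and 75.6 ± 29.8 CPM in female wild type (SD, n = 3 each).

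In males Tshb measured 1109, 599.6 and 760 CPM in Cre control libraries, against 413, 548 and 308.5 CPM in wild type libraries. The groups did not overlap, but replicate 1 of the Cre control was well above its own group. The log2 fold change of 0.96 (SE 0.273) missed the threshold (edgeR adjusted p = 0.161), and DESeq2 called it at 0.96 (adjusted p = 0.0364). Male Egr1cKO libraries held 736, 845 and 617.5 CPM of Tshb, against 298, 206 and 329.5 CPM in male Egr1cKO controls. Every Egr1cKO library was above every control here, by a log2 fold change of 1.40 (SE 0.275, adjusted p by edgeR = 0.052), which is 2.64-fold and just missed the threshold. In edgeR's fits that left out 1 library of these groups the adjusted p lay between 0.117 and 0.475. DESeq2 called the same difference at 1.37 (adjusted p = 0.000704), and so did edgeR on these 6 libraries alone at 1.37 (adjusted p = 0.00637).

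Female Egr1cKO was the one stratum of sex and genotype in which the Tshb fold change with Cre was negative. It measured 215, 215 and 246 CPM in female Egr1cKO libraries, against 212, 228 and 456 CPM in female Egr1cKO controls. The groups overlapped, and control replicate 3 stood above the other 5 libraries. The log2 fold change was -0.41 (SE 0.271, adjusted p by edgeR = 0.437), and 0.03 (edgeR adjusted p = 0.997) without that control library. Set against the Cre effect in females, the Egr1cKO effect on Tshb differed by -2.18 on the log2 scale (SE 0.387) and missed the threshold (adjusted p by edgeR = 0.0683), where 0.00456% of genes were called. Without female wild type replicate 1 it was -2.36 and was called (edgeR adjusted p = 0.00306), and DESeq2 called it with all libraries (-2.17, adjusted p = 0.000124). In males the corresponding difference was 0.44 (SE 0.382, adjusted p by edgeR = 1). The female minus male difference of the Egr1cKO effect on Tshb was -1.81 on the log2 scale (SE 0.385), which edgeR did not call (adjusted p = 0.114, with 0.0228% of genes called) and DESeq2 did (-1.79, adjusted p = 0.00461).

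**Figure D2:**
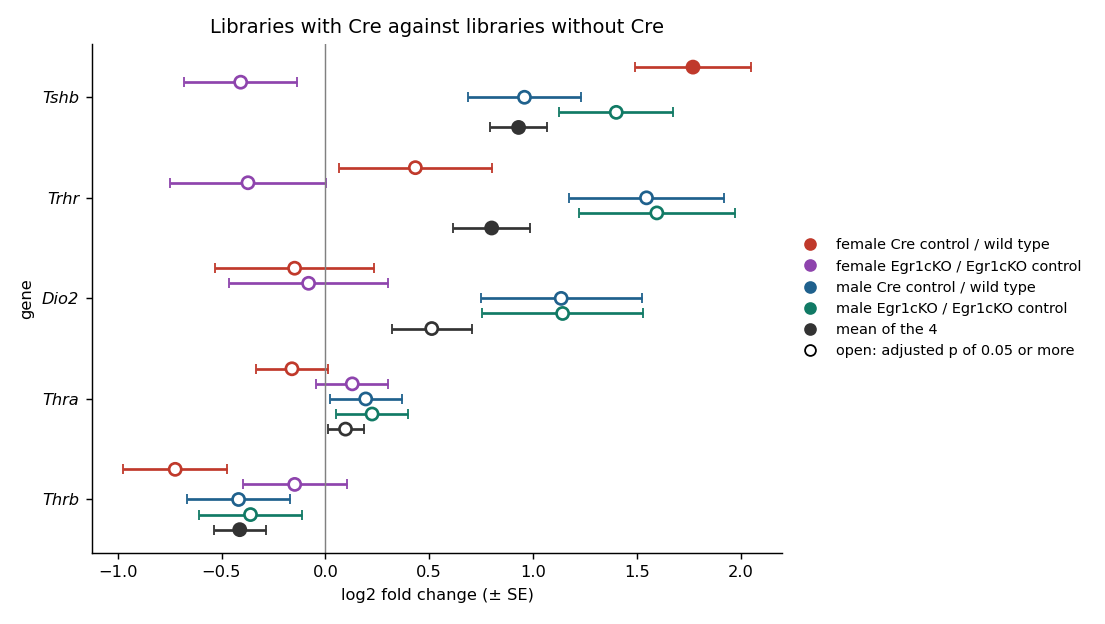
Fitted log2 fold changes with SE of the 5 genes for libraries with Cre against libraries without Cre, in each sex and Egr1 genotype and as the mean over these 4 strata; filled points passed an edgeR adjusted p of 0.05. Tshb reached 1.77 in Cre control females and -0.41 in Egr1cKO females, and Thra stayed between -0.16 and 0.22.

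Trhr, the receptor through which the hypothalamus drives thyrotropes, was scarce in females and in males without Cre, and its highest levels were in males with Cre. It measured 17.97, 19.5 and 21.0 CPM in male Cre control libraries, against 7.47, 5.12 and 7.43 CPM in male wild type libraries. Male Egr1cKO libraries held 17.8, 13.0 and 10.8 CPM, against 5.97, 2.88 and 4.96 CPM in male Egr1cKO controls. Neither pair overlapped. The log2 fold changes were 1.55 (SE 0.373, adjusted p by edgeR = 0.0696) for the Cre control and 1.60 (SE 0.376, adjusted p by edgeR = 0.153) for the Egr1cKO, and edgeR called neither. DESeq2 called both, at 1.54 (adjusted p = 0.00639) and 1.56 (adjusted p = 0.0112).

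In females Trhr measured 3.73, 9.05 and 10.01 CPM in Cre control libraries, against 2.73, 8.15 and 6.0 CPM in wild type libraries. Female Egr1cKO libraries had 4.73, 4.20 and 3.69 CPM, against 4.54, 5.92 and 5.90 CPM in female Egr1cKO controls. Both pairs overlapped, with log2 fold changes of 0.43 (SE 0.370, adjusted p by edgeR = 0.605) and -0.37 (SE 0.374, adjusted p by edgeR = 0.648). The female minus male difference of the Cre effect was -1.11 (edgeR adjusted p = 0.259, where 0.128% of genes were called), and that of the Egr1cKO effect was -1.97 (edgeR adjusted p = 0.289). Without female wild type replicate 1 the Cre effect on Trhr in females was 0.11 (edgeR adjusted p = 0.900), and the female minus male difference of the Cre effect was -1.44 and was called (edgeR adjusted p = 0.0332).

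Dio2, the activating deiodinase, likewise had its highest group means in males with Cre. It measured 76.5, 117.4 and 114 CPM in male Cre control libraries, against 56.9, 37.1 and 46.4 CPM in male wild type libraries. In male Egr1cKO libraries it was at 126, 85.1 and 49.9 CPM, against 32.2, 44.0 and 41.8 CPM in male Egr1cKO controls. Again neither pair overlapped, although the 3 Egr1cKO libraries spanned more than the gap to their controls. The log2 fold changes were 1.14 (SE 0.387, adjusted p by edgeR = 0.292) and 1.14 (SE 0.388, adjusted p by edgeR = 0.557). Over its 16 comparisons Dio2 was called by edgeR in 0, stood at an unadjusted p under 0.05 in 7, and was called by DESeq2 in 1, the lower level of female than of male Egr1cKO.

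In females Dio2 measured 51.9, 60.2 and 56.4 CPM in Cre control libraries, against 18.1, 92.4 and 76.1 CPM in wild type libraries. The low wild type value came from replicate 1, the library with the high mitochondrial share. With it the log2 fold change was -0.15 (SE 0.383, adjusted p by edgeR = 0.900), and without it -0.59 (edgeR adjusted p = 0.147). Without it the female minus male difference of the Cre effect on Dio2, -1.28 with all libraries (edgeR adjusted p = 0.220), was -1.72 and was called (edgeR adjusted p = 0.00158). Female Egr1cKO libraries held 49.8, 34.6 and 42.3 CPM, against 45.3, 35.2 and 53.4 CPM in female Egr1cKO controls, a log2 fold change of -0.08 (SE 0.384, adjusted p by edgeR = 0.945). The mitochondrial share was 8.73 to 10.4% in these Egr1cKO libraries, against 3.50 to 6.87% in their controls, and with that share in the model the Dio2 value turned to 1.13 (edgeR adjusted p = 0.0063). The model takes the slope of this share from the spread within groups. That spread was widest in female wild type, with an SD of 4.42%, against 0.524 to 1.76% in the other groups. Replicate 1 stood apart in that group. How far the adjusted Dio2 value depends on that library was not tested. The share is not a direct measure of RNA quality, whose part in the female Dio2 values was not tested.

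The thyroid hormone receptors varied less. Thra, the receptor gene of broad expression, measured 106, 106 and 112 CPM in male Cre control libraries, against 87.5, 102 and 94.6 CPM in male wild type libraries, which did not overlap. Its other pairs of groups with and without Cre overlapped, and its mean lay between 79.6 CPM in female Egr1cKO control and 108 CPM in male Cre control. Thra was called in 0 of 16 comparisons by edgeR, had 0 at an unadjusted p under 0.05, and was called in 0 by DESeq2. Nr1d1, whose exons overlap those of Thra, had a log2 fold change of -1.01 (edgeR adjusted p = 0.0831) in Cre control against wild type females, where Thra had -0.16 (edgeR adjusted p = 0.706).

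Thrb, the receptor of the feedback on Tshb, had negative log2 fold changes for libraries with Cre in each of the 4 strata of sex and genotype. It measured 71.0, 71.3 and 47.7 CPM in male Cre control libraries, against 86.9, 83.3 and 83.8 CPM in male wild type libraries. In male Egr1cKO libraries it was at 66.3, 51.7 and 49.9 CPM, against 76.3, 67.2 and 72.1 CPM in male Egr1cKO controls. In both male pairs every library with Cre lay below every library without it, but the log2 fold changes of -0.42 (SE 0.250, adjusted p by edgeR = 0.569) and -0.36 (SE 0.250, adjusted p by edgeR = 0.875) were not called. In females Thrb measured 48.1, 49.5 and 60.8 CPM in Cre control libraries, against 54.4, 107 and 100.5 CPM in wild type libraries, where replicate 1 was again the low one. The log2 fold change was -0.72 (SE 0.251, adjusted p by edgeR = 0.143), and without that library it was -0.97 and was called (edgeR adjusted p = 0.00425). Female Egr1cKO libraries had 31.6, 57.1 and 79.3 CPM, against 55.6, 70.8 and 59.7 CPM in female Egr1cKO controls, a log2 fold change of -0.15 (SE 0.250, adjusted p by edgeR = 0.814).

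Counted by comparison, all 5 genes had groups that did not overlap between male Cre control and male wild type, 4 with the Cre libraries above and 1 with them below, where 21.6% of genes did so, yet none was called (0.233% of genes were; 3 of the 5 had an unadjusted p under 0.05, and DESeq2 called 2). Between male Egr1cKO and male Egr1cKO control 4 of 5 did not overlap, 3 with the Egr1cKO libraries above and 1 with them below, against 21.0% of genes; 0 were called by edgeR (0.041% of genes), 3 had an unadjusted p under 0.05, and DESeq2 called 2. Between female Egr1cKO and female Egr1cKO control 0 of 5 were apart, against 21.5% of genes, and 0 were called by edgeR (2.21% of genes) or DESeq2, with 0 at an unadjusted p under 0.05. Because whole pituitaries were sequenced, fewer cells of a type and less RNA per cell cannot be told apart in any of these values.

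Averaged over both sexes and both Egr1 genotypes, 12 libraries with Cre against 12 without, 3 of the 5 genes passed the threshold, where 6.89% of genes did, 2.8% as higher and 4.08% as lower. Tshb was higher by a log2 fold change of 0.93 (SE 0.136, adjusted p by edgeR = 6.93e-05) and Trhr by 0.80 (SE 0.186, adjusted p by edgeR = 0.00746), while Thrb was lower at -0.41 (SE 0.13, adjusted p by edgeR = 0.0437). The Tshb and Trhr calls held in all 24 fits that left out 1 library. The Thrb call held in 7 of these 24 fits, with an adjusted p as high as 0.0856 without female Egr1cKO control replicate 2. Dio2 had 0.51 (SE 0.192, adjusted p by edgeR = 0.118) and Thra 0.10 (edgeR adjusted p = 0.564). Without female wild type replicate 1 the Dio2 value was 0.40 and was called (edgeR adjusted p = 0.0474). This average includes female Egr1cKO, in which the log2 fold changes of Tshb, Trhr and Dio2 were negative. For Cre control and Egr1cKO in that order, Trhr had 1.55 and 1.60 in males, against 0.43 and -0.37 in females. Dio2 had 1.14 and 1.14 in males, against -0.15 and -0.08 in females.

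Without Cre, edgeR with all libraries called no gene between Egr1cKO control and wild type. Floxed Egr1 and the number series cannot be told apart in this comparison. For Egr1cKO control minus wild type, edgeR called 0 of 5 members and 0.0% of all genes in each sex, with 1 member at an unadjusted p under 0.05 in each and 0 called by DESeq2. One member in each sex had groups that did not overlap, Thra in females, where 11.2% of genes did so, and Thrb in males, where 6.34% did, both with the Egr1cKO control libraries below those of wild type. Over all genes, 3247 in females and 196 in males had an unadjusted p under 0.05, and DESeq2 called 633 and 0. Tshb had a log2 fold change of 0.75 (edgeR adjusted p = 0.191) in females and -0.61 (edgeR adjusted p = 1) in males. Without female wild type replicate 1 the female Tshb value was 0.93 and was called (edgeR adjusted p = 0.0325), as were Dio2 at -0.92 (edgeR adjusted p = 0.0169) and Thrb at -0.74 (edgeR adjusted p = 0.0219).

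Tshb was called lower in females in 2 of the 4 genotypes. Wild type was one of them, at 178 ± 40.7 CPM in females and 423 ± 120 CPM in males (SD, n = 3 each), a log2 difference of -1.25 (SE 0.275, adjusted p by edgeR = 0.0412). Tshb was the one member of 5 called there, where 0.283% of genes were called, 0.164% as lower, and the one whose sexes did not overlap, against 10.1% of genes. That call was lost in 4 of 6 fits that left out 1 library, without female replicate 2 or 3 or male replicate 1 or 2, with an adjusted p as high as 0.299. It also missed with DESeq2's size factors in edgeR (-1.22, adjusted p = 0.0538), with genes below a mean of 10 CPM left out (-1.22, edgeR adjusted p = 0.0599) and on these 6 libraries alone (-1.26, edgeR adjusted p = 0.589). Egr1cKO was the other, at 225 ± 17.6 CPM in females and 733 ± 114 CPM in males, a log2 difference of -1.70 (SE 0.278, adjusted p by edgeR = 0.000575) that held in 6 of 6 such fits. In Cre control it was -0.44 (edgeR adjusted p = 0.332) and in Egr1cKO control 0.11 (edgeR adjusted p = 0.934). The sex difference in Tshb was not shown to differ between genotypes by edgeR: Cre control minus wild type gave 0.81 (adjusted p = 0.263), and Egr1cKO minus Egr1cKO control the -1.81 given above.

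Trhr was lower in females in both groups with Cre. Female Cre control libraries had 7.60 ± 3.39 CPM and male ones 19.5 ± 1.51 CPM, a log2 difference of -1.35 (SE 0.371, adjusted p by edgeR = 0.0402), where 3.61% of genes were called, 2.01% as lower. Female Egr1cKO libraries had 4.20 ± 0.516 CPM and male ones 13.9 ± 3.56 CPM, a log2 difference of -1.72 (SE 0.378, adjusted p by edgeR = 0.00593). The Cre control call held in 1 of 6 fits that left out 1 library, and was lost without any one female library or male replicate 2 or 3, at an adjusted p up to 0.189. The Egr1cKO call held in 5 of 6, and without male Egr1cKO replicate 1 the adjusted p was 0.0503. Without Cre the sexes did not differ past the threshold: -0.24 (edgeR adjusted p = 0.979) in wild type and 0.25 (edgeR adjusted p = 0.865) in Egr1cKO control.

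In Egr1cKO, 2 of 5 members were called, both lower in females, where 13.1% of genes were called in all and 7.57% as lower. Tshb, Trhr and Dio2 each had sexes that did not overlap there, against 38.4% of genes, 23.5% with females lower, and Dio2 had a log2 difference of -1.04 (SE 0.387, adjusted p by edgeR = 0.0755). In Cre control Trhr, Dio2 and Thra had female libraries below every male library, where 33.0% of genes did not overlap, 18.0% with females lower. Thra was at -0.27 there (edgeR adjusted p = 0.354). Nr1d1, whose exons overlap those of Thra, was called lower in these females at -1.43 (edgeR adjusted p = 0.0096). The part of Nr1d1 reads in the Thra values was not tested. In Egr1cKO control 0 of 5 were called by edgeR or DESeq2, with 0 at an unadjusted p under 0.05, and none had sexes apart, where 0.451% of genes were called and 24.9% did not overlap.

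As a mean over the 4 genotypes, Tshb was lower in females by -0.82 (SE 0.136, adjusted p by edgeR = 0.000156) and Trhr by -0.77 (SE 0.186, adjusted p by edgeR = 0.00494), in a comparison that called 21.7% of genes, 11.7% as lower. Both calls held in all 24 fits that left out 1 library. Tspan2, whose span holds Tshb, was also lower in females, by -0.84 over the 4 genotypes (edgeR adjusted p = 4.9e-05). It was at -1.76 in Egr1cKO (edgeR adjusted p = 0.000193) and -1.16 in Cre control (edgeR adjusted p = 0.0128). In wild type it was at 0.12 (edgeR adjusted p = 0.988) and in Egr1cKO control at -0.56 (edgeR adjusted p = 0.320). The part of Tspan2 reads in the Tshb values was not tested. The mitochondrial share differed by sex in the groups with Cre: 6.08 ± 0.586% in female and 2.51 ± 0.598% in male Cre control, and 9.43 ± 0.884% in female and 3.33 ± 0.524% in male Egr1cKO libraries (SD, n = 3 each). With this share in the model, Trhr lost all 3 of its calls: the log2 difference was -0.78 (edgeR adjusted p = 0.412) in Cre control, -0.76 (edgeR adjusted p = 0.504) in Egr1cKO and -0.27 (edgeR adjusted p = 0.690) over the 4 genotypes. Tshb kept its calls in wild type, in Egr1cKO and over the 4 genotypes in the same model. In both groups with Cre the share did not overlap between the sexes, so share and sex cannot be told apart there.

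**Figure D3:**
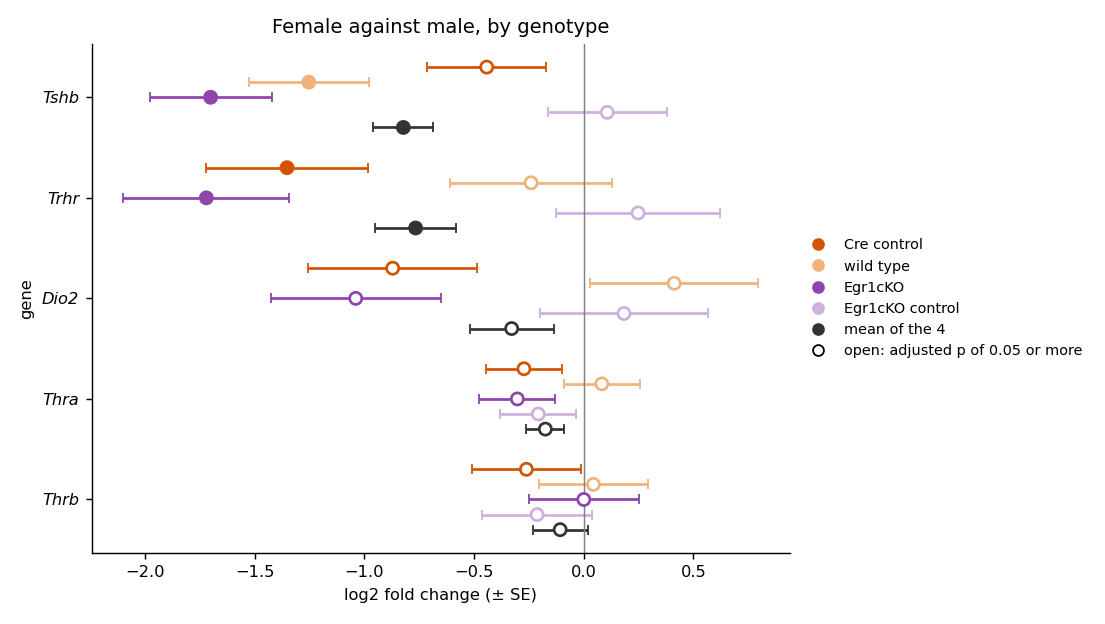
Fitted female minus male log2 differences with SE of the 5 genes in each genotype and as the mean over the 4 genotypes; filled points passed an edgeR adjusted p of 0.05. Tshb lay at -1.70 in Egr1cKO and 0.11 in Egr1cKO control, Trhr at -1.72 and 0.25, and no value of Thra or Thrb passed.

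The order of the 8 group means was alike at the top for Tshb, Trhr, Dio2 and Thra, with male Cre control first and male Egr1cKO next. For Tshb these were followed by female Cre control, male wild type, female Egr1cKO control, male Egr1cKO control, female Egr1cKO and female wild type. Only the step between female Cre control at 605 CPM and male wild type at 423 CPM had libraries that did not overlap. For Trhr both steps below male Cre control (19.5 CPM) and male Egr1cKO (13.9 CPM) were without overlap, and the other 6 groups, between 4.20 and 7.60 CPM, overlapped with their neighbours. For Dio2 and Thra every neighbouring pair overlapped. Thrb had another order, led by female and male wild type at 87.2 and 84.6 CPM and ending with female Cre control at 52.8 CPM, with 1 step without overlap, between male wild type and male Egr1cKO control at 71.9 CPM.

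Other genes of the axis were read from 7 lists with 57 distinct genes, of which 56 were tested. The lists were chosen with earlier results of these data known, so their called shares only describe them and do not test the axis. Between the sexes edgeR called 0 of the 56 in wild type and 0 in Egr1cKO control, where 0.283% and 0.451% of all genes were called. DESeq2 called 3 in wild type (Chst8, Gata2 and Rxrg) and 3 in Egr1cKO control (Me1, Plcb4 and Rxrb), and 202 and 506 genes in all. An unadjusted edgeR p under 0.05 was reached by 6 and 7 of the 56, and by 1542 and 3021 of all genes. As a mean over the 4 genotypes edgeR called 5 of the 56 higher in females and 14 lower, Gata2 among the lower. That was 33.9%, where 21.7% of all genes were called, 11.7% as lower. Between Egr1cKO control and wild type edgeR called 0 of the 56 in each sex, where 0.0% of all genes were called. Between female Cre control and female wild type, edgeR called 2 of the 56 higher and 1 lower, 5.36% where 1.21% of all genes were called. DESeq2 called 11 of the 56, and 1011 genes in all. An unadjusted p under 0.05 was reached by 17 of the 56, 12 of them with a negative log2 fold change, and by 3680 of all 21927 genes. Cga, the alpha subunit, measured 1880, 3143 and 2789 CPM in female Cre control, against 842, 851.5 and 1058 CPM in female wild type, a log2 fold change of 1.51 (SE 0.362, adjusted p by edgeR = 0.0393). Isl1, a LIM-homeodomain factor of thyrotropes and gonadotropes, had 43.5, 46.1 and 42.8 CPM against 25.6, 13.8 and 17.0 CPM, a log2 fold change of 1.24 (SE 0.228, adjusted p by edgeR = 0.00785). Prkca, a protein kinase C downstream of Gq receptors, fell by 0.77 on the log2 scale (edgeR adjusted p = 0.0476). The median log2 fold change of the tested list genes was -0.09 and that of all genes -0.04.

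Between male Cre control and male wild type edgeR called 1 of the 56, 1.79% where 0.233% of all genes were called. It was Rxrg, which encodes a retinoid X receptor that pairs with thyroid hormone receptors. Its level was 13.1, 22.8 and 20.2 CPM in male Cre control, against 61.3, 50.9 and 56.6 CPM in male wild type, and it fell by 1.59 on the log2 scale (SE 0.224, adjusted p by edgeR = 0.0011). Between male Egr1cKO and male Egr1cKO control edgeR called 0 of the 56, where 0.041% of all genes were called. An unadjusted p under 0.05 was reached by 7 of the 56 and by 1441 of all 21927 genes. DESeq2 called 1 of the 56, Rxrg, whose log2 fold change was -0.996 (edgeR adjusted p = 0.109).

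Between female Egr1cKO and female Egr1cKO control, where no member was called, edgeR called 3 of the 56 higher and 5 lower, 14.3% where 2.21% of all genes were called, and DESeq2 called 9. Among the transcription factors, Pou1f1, which specifies thyrotropes, somatotropes and lactotropes, measured 28.1, 76.2 and 65.04 CPM in female Egr1cKO, against 178, 212 and 207 CPM in controls, and fell by 1.82 (log2, SE 0.302, adjusted p by edgeR = 0.00221). Rxrg had 10.9, 14.9 and 10.2 CPM in female Egr1cKO, against 33.8, 41.4 and 38.9 CPM in controls, a log2 fold change of -1.66 (edgeR adjusted p = 0.00018). In TRH and somatostatin signalling, Sstr5, a somatostatin receptor, was at 0.502, 0.0 and 0.982 CPM in female Egr1cKO, against 5.04, 3.37 and 7.99 CPM in controls (log2 fold change -3.42, edgeR adjusted p = 0.00261). Plcb4, a phospholipase C of Gq signalling, fell by 0.81 (edgeR adjusted p = 0.0142).

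The remaining called genes of that comparison belong to hormone uptake, T3 response and glycan finishing. Slc3a2, the heavy chain of amino acid and thyroid hormone transporters, was higher by 0.64 (edgeR adjusted p = 0.0426). Me1, malic enzyme, a T3-induced gene known from liver, was higher by 0.81 (edgeR adjusted p = 0.0338). Chst8, which sulfates the sugar chains of pituitary glycoprotein hormones, measured 106, 112.5 and 119 CPM in female Egr1cKO, against 67.2, 48.2 and 35.6 CPM in controls, a log2 fold change of 1.16 (edgeR adjusted p = 0.0105). B4galnt3, a transferase that acts one step before it, measured 0.669, 1.01 and 2.01 CPM against 9.51, 9.16 and 14.6 CPM, a log2 fold change of -3.17 (edgeR adjusted p = 0.0249).

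**Figure D4:**
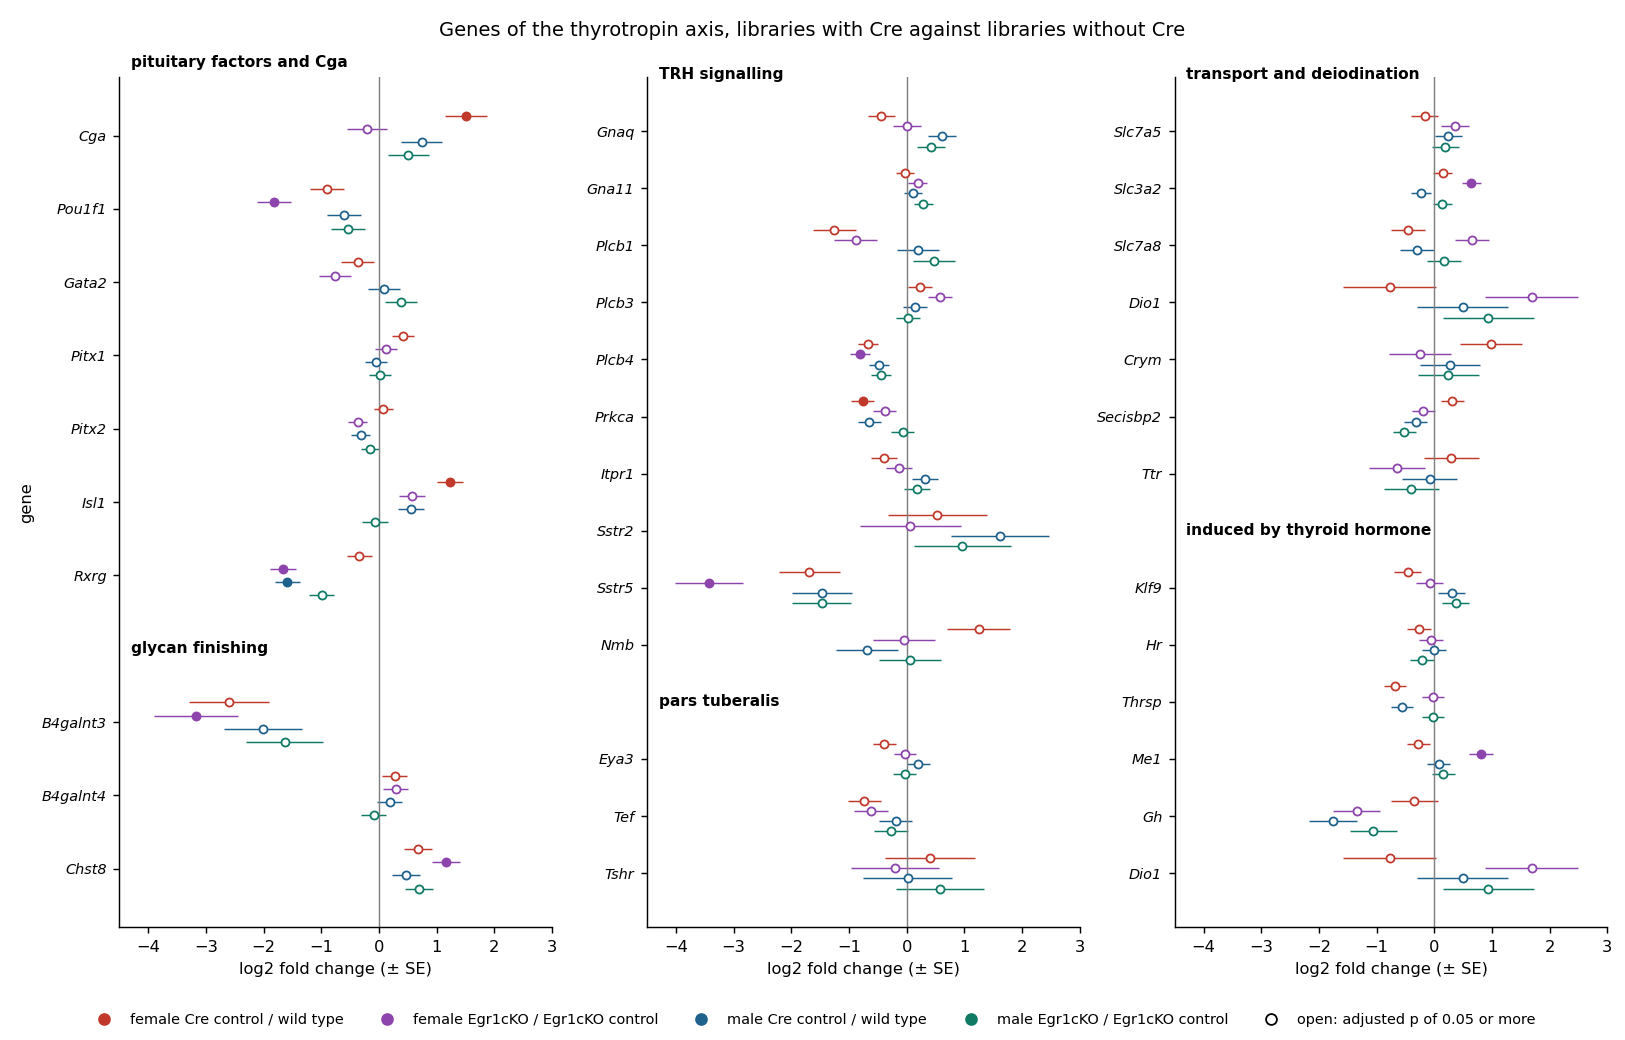
Fitted log2 fold changes with SE for libraries with Cre against libraries without Cre in each sex and Egr1 genotype, for genes of 6 axis lists with a mean of at least 2 CPM; filled points passed an edgeR adjusted p of 0.05. Dio1 stands in 2 lists, receptor cofactors are not drawn, and Rxrg and Pou1f1 lie left of 0 in all 4 strata.

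Averaged over the 4 strata, 4 of the 56 were higher with Cre and 9 lower by edgeR, 23.2% of those tested, where 6.89% of all genes were called, 2.8% as higher and 4.08% as lower. Chst8 had a log2 fold change of 0.75 (edgeR adjusted p = 0.000241), Cga 0.64 (edgeR adjusted p = 0.029; 0.62 and 0.0764 without female wild type replicate 1) and Isl1 0.57 (edgeR adjusted p = 0.00177). The lower ones included Rxrg at -1.15 (edgeR adjusted p = 3.16e-07), Pou1f1 at -0.97 (edgeR adjusted p = 0.000151) and Sstr5 at -2.01 (edgeR adjusted p = 2e-05). Between female and male Egr1cKO, 5 of 56 were higher in females and 11 lower by edgeR, 28.6% where 13.1% of all genes were called and 7.57% as lower. The lower ones included Gata2, a factor that acts with POU1F1 on the Tshb promoter, at 21.6 ± 3.70 CPM in females and 63.3 ± 5.57 CPM in males (SD, n = 3 each; log2 difference -1.55, edgeR adjusted p = 0.00173), and Klf9, a direct T3 target, at -0.86 (edgeR adjusted p = 0.02). In Cre control 1 of the 56 was higher and 3 were lower in females, 7.14% where 3.61% of all genes were called and 2.01% as lower. Among the lower were Gata2 (-1.67, edgeR adjusted p = 0.00171) and Klf9 (-0.95, edgeR adjusted p = 0.0275).

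Over the 24 libraries the gene most like Tshb was Cga, with a Pearson r of 0.881 and a Spearman rho of 0.863 between log2 CPM values. It was first of 13983 genes with a mean of at least 1 CPM, a set without Tspan2, pseudogenes, Gm or Rik names and unmatched identifiers. Among the next were Nr5a1, which encodes the gonadotrope factor SF1 (r = 0.756), Foxl2, a forkhead factor of gonadotropes and thyrotropes (r = 0.756), and Crym, which encodes the T3-binding protein mu-crystallin (r = 0.749). Trhr ranked 15 (r = 0.715), Dio2 762 (r = 0.468), Thra 2096 (r = 0.351) and Thrb 11355 (r = -0.264). These values describe libraries that share group, depth and RNA quality. Without female wild type replicate 2 and male Cre control replicate 1, the 2 libraries farthest from the median of Tshb, r was 0.844 for Cga and 0.758 for Trhr. Over deviations from group means r with Tshb was 0.657 for Cga, 0.651 for Nr5a1, 0.590 for Crym and 0.311 for Foxl2. It was -0.03 for Trhr, -0.25 for Dio2, 0.03 for Thra and -0.04 for Thrb.

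**Figure D5:**
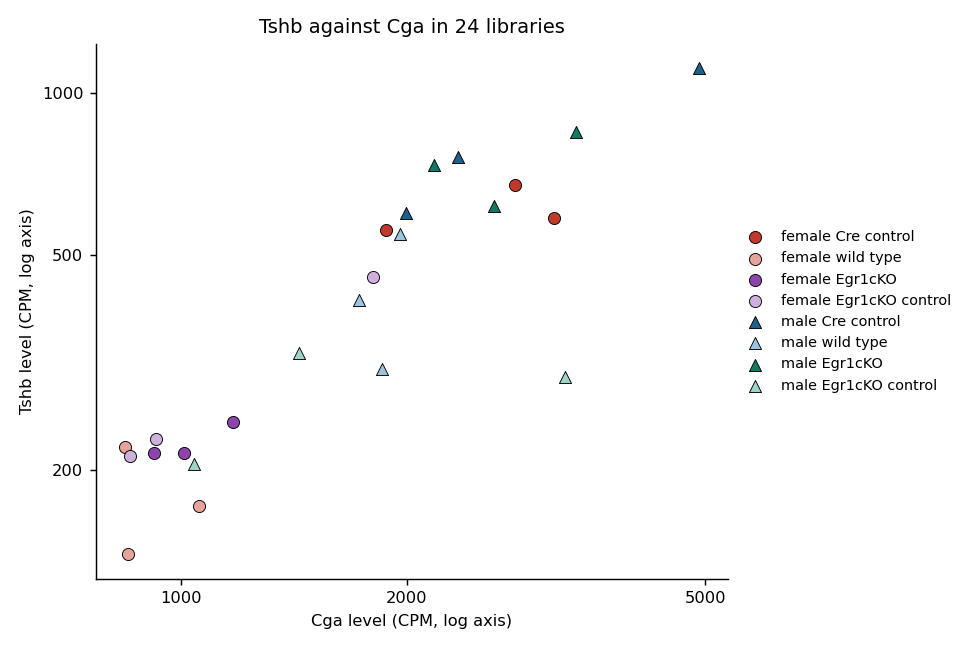
Tshb against Cga in CPM (both axes log scaled), 1 point per library, by sex and genotype. Female wild type libraries lie at the lower left, at 140 to 221 CPM of Tshb and 842 to 1058 CPM of Cga, and male Cre control replicate 1 was highest in both, at 1109 and 4905 CPM.

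Markers of other pituitary cells moved with the presence of Cre. As a mean over the 4 strata, 6 of 7 corticotrope and melanotrope markers, 3 of 4 stem and folliculostellate markers and 4 of 5 posterior lobe markers were higher with Cre, while both somatotrope markers and the lactotrope marker Prl were lower, in a comparison that called 2.8% of all genes as higher and 4.08% as lower. The 3 gonadotrope markers had a median log2 fold change of 0.29. No marker on these lists was at 0 in any library. Summed Pomc, Pcsk2 and other corticotrope and melanotrope markers came to 83610 to 228500 CPM in female Egr1cKO libraries, against 12120 to 40060 CPM in their controls, and to 52540 to 95990 CPM in female Cre control, against 37330 to 41710 CPM in female wild type. In male Cre control they came to 31440 to 48790 CPM, against 9234 to 49270 CPM in male wild type, and in male Egr1cKO to 40230 to 113800 CPM, against 7642 to 32120 CPM in male Egr1cKO control.

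Prl had 3046 to 4253 CPM in male Cre control, against 36700 to 43580 CPM in male wild type, and 3800 to 7057 CPM in male Egr1cKO, against 15180 to 46750 CPM in male Egr1cKO control. In females it had 57810 to 75590 CPM in Cre control, against 113200 to 151200 CPM in wild type, and 20820 to 48960 CPM in Egr1cKO, against 81230 to 140000 CPM in Egr1cKO control. The summed posterior lobe markers were at 256.5 to 281 CPM in female Cre control, against 150 to 215 CPM in female wild type, and at 303.5 to 418 CPM in female Egr1cKO, against 159 to 167 CPM in its control. In males they had 110 to 183 CPM in Cre control, against 70.1 to 124 CPM in wild type, and 153 to 180 CPM in Egr1cKO, against 51.5 to 130 CPM in Egr1cKO control. Their part in the Tshb, Trhr, Dio2 and Thrb values was not tested.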

How the data were processed

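Non-stranded polyA RNA sequencing measured 24 mouse pituitary libraries. The authors deposited raw read counts, whole numbers for each Ensembl gene. Per the submitters' processing notes, Trim Galore 3.8.2, FastQC and STAR 2.7.9 were used with GRCm38; neither the counting tool nor its annotation is named in the sources used here. Of 35191 identifiers 35065 matched GENCODE M21. Replicates differed beyond sampling noise in all 24 pairs (chi-square over its degrees of freedom at least 16.3, on genes whose summed count reached 20).

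Counts were scaled by TMM, filtered with filterByExpr (21927 genes) and fitted with edgeR 4.0.16 in R 4.3.3, as 1 model with 8 group means and 16 residual degrees of freedom. The robust quasi-likelihood test was adjusted by Benjamini-Hochberg over all genes tested at a threshold of 0.05, in 16 comparisons. Fold changes used edgeR's default prior count, and SE is that of the log2 fold change. Levels are CPM, mean ± SD with n = 3. Alternatives were DESeq2 1.42.0, other scalings and filters, the mitochondrial share as a covariate, only the groups compared, and leaving out each library. Likeness to Tshb used log2 CPM with a prior count of 2. The script was tested on simulated data.

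The 5 genes and the lists were chosen with earlier results of these data known. Named from each list were genes past the threshold, up to 6 by smallest p, or up to 2 where none passed; the text gives a part of them. For likeness, genes were named from the 5 with the highest r. A few genes of the lists and of the likeness ranking are not reported here and are left out of the list counts.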

Additional observations from a re-analysis of the deposited data

How the results depend on the processing

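No paired analysis was possible because the labels give no replicate numbers that groups share. Values here are log2 fold changes or differences of the 5 genes in the 16 comparisons. DESeq2 in place of edgeR called 7 more: Tshb for the Cre effect in males (0.96), the Egr1cKO effect in males (1.37), that effect beyond Cre in females (-2.17) and its sex difference (-1.79), Trhr for the Cre (1.54) and Egr1cKO (1.56) effects in males, and Dio2 between female and male Egr1cKO (-0.98). DESeq2's size factors in edgeR and the minimum mean of 10 CPM each lost the wild type sex difference of Tshb (-1.22 in both); Trhr was not tested under the latter setting.

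Without a filter on low counts 17 more were called: Tshb for the Cre effect in males (0.97), the Egr1cKO effect in males (1.39), that effect beyond Cre in females (-2.18), its sex difference (-1.82) and Egr1cKO control against wild type in females (0.76). Likewise called were Trhr for the Cre (1.55) and Egr1cKO (1.59) effects in males and the sex difference of the Egr1cKO effect (-1.97), and Thrb for the Cre effect in females (-0.74). Dio2 was called for the Cre (1.15) and Egr1cKO (1.13) effects in males, their sex differences (-1.31 and -1.23), the mean Cre effect (0.51), and between females and males in Cre control (-0.90), Egr1cKO (-1.05) and on average (-0.34).

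With only the groups compared in the model, Tshb lost the Cre effect in females (1.76) and the wild type sex difference (-1.26), while calls were gained for Tshb (1.37) and Trhr (1.57) in the Egr1cKO effect in males, Trhr in the Cre effect in males (1.52), and Dio2 between the sexes in Cre control (-0.84) and Egr1cKO (-1.01).

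With the mitochondrial share as a covariate, Dio2 was called for the Cre (0.87) and Egr1cKO (1.20) effects in males and the mean Cre effect (0.91), and its Egr1cKO effect in females reversed to 1.13. Trhr was called for the Cre (1.41) and Egr1cKO (1.65) effects in males, and Tshb for the Egr1cKO effect in males (1.38) and beyond Cre in females (-2.39). Lost were Thrb in the mean Cre effect (-0.33) and Trhr between the sexes in Cre control (-0.78), Egr1cKO (-0.76) and on average (-0.27). Among list genes, Itpr1 (0.034) and Ncoa1 (0.0007) reversed between female and male Egr1cKO, and of 148 results of list and marker genes 51 lost their call and 1 gained one, among the lost Cga in the Cre effect in females, Slc3a2 and B4galnt3 in the Egr1cKO effect in females, and Klf9 between the sexes in Cre control and Egr1cKO. Within groups the share varied most in female wild type, where replicate 1 stood apart. How far the fits with the covariate depend on that library was not tested. The causes of these changes were not tested.

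Leaving out 1 library changed a call of Tshb beyond Cre in females (-2.37 to -1.74, called in 4 of 12 fits), in the wild type sex difference (-1.44 to -1.03) and in Egr1cKO control against wild type in females (0.31 to 0.95). For Trhr it did so between the sexes in Cre control (-1.60 to -1.04) and Egr1cKO (-1.87 to -1.50) and in the sex difference of the Cre effect (-1.44 to -0.75). For Thrb it did so in the mean Cre effect (-0.50 to -0.34), the Cre effect in females (-0.97 to -0.56) and Egr1cKO control against wild type in females (-0.74 to -0.34). For Dio2 it did so in the last of these (-0.92 to -0.0929), between female and male Egr1cKO (-1.32 to -0.67), in the sex difference of the Cre effect (-1.72 to -0.89) and in the mean Cre effect (0.40 to 0.61).

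Counts of all called genes moved widely. The Cre effect in females called 265, 1011 with DESeq2, 1149 unfiltered, 599 with the covariate and 2 on its own groups; in males it called 51, and 264, 704, 179 and 112 in that order. The Egr1cKO effect in females called 484, and 1453, 1142, 3081 and 470; in males 9, and 103, 339, 208 and 192. The mean sex difference called 4761, and 596 with the covariate.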
